A study of Drosophila melanogaster with 4 samples.

Results

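The regions described here are the stretches of enrichment for histone H3 monomethylated at lysine 27 (H3K27me1) in the interior of chromosome arm 2L of Drosophila melanogaster. They were taken from the list of enriched regions made for the whole series, which holds 12362 lines, of which 12359 are called enriched and 3 depleted. A region belongs to the interior when its midpoint lies at least 2 Mb from either end of the assembled arm on FlyBase release 5, so that the last possible midpoint is 21011544. By that rule 1444 regions of the 12362 are members, and all 1444 are called enriched. The interior spans 19.01 Mb.

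The data come from chromatin immunoprecipitation followed by sequencing (ChIP-seq) in instar 3 larvae of the wild-type strain Oregon-R. The series holds 2 H3K27me1 ChIP samples, made with a rabbit polyclonal antibody from Millipore, and 2 input samples. Each ChIP sample has its own list, called replicate 1 and replicate 2 here, and input values were not analysed. The labels do not say whether the replicates came from separate collections of larvae, so their spread may be purely technical. All samples share 1 genotype and stage, and the 2 ChIP samples share 1 antibody. The chromatin came from homogenized tissue in which cell types cannot be told apart.

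In flies the Polycomb repressive complex PRC2, through its catalytic subunit Enhancer of zeste, adds methyl groups to lysine 27 of histone H3 in steps, from mono- to di- to trimethylation. The demethylase Utx acts on the di- and trimethylated forms. The trimethylated form is known for marking repressed developmental genes, while in mammalian cells the monomethylated form is known from the bodies of transcribed genes. Gene positions on release 5 were not used here, so regions are named by position alone.

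H3K27me1 lay over the 2L interior as many small regions and a few long blocks. The 1444 members had a median width of 2138.5 bp, with the central 50% between 1420.5 and 4099 bp and a range from 1001 to 45040 bp. They covered 5.12 Mb, or 26.9% of the interior. The replicate lists held 1026 regions in replicate 1 and 880 in replicate 2, and covered 18.5% and 15.3% of the interior, a mean of 16.9% ± 2.3 (SD, n = 2). The 73 members of 10 kb or more were 5.06% of the members and held 23.8% of the covered bases.

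The score of a region is the authors' own value on a scale the headers do not state, so only differences and ranks are read from it. Member scores had a median of 0.38, with the central 50% between 0.33 and 0.47 and a range from 0.06 to 3.31. Wider members tended to score higher, with a Spearman correlation across 1444 members of 0.59. In the replicate lists the same relation was 0.75 over the 1026 regions of replicate 1 and 0.68 over the 880 of replicate 2. These are descriptions across regions of 1 genome, which share their libraries, and carry no p-value. The narrowest members broke the trend: those under 1301 bp had a median score of 0.36, against 0.32 for those of 1301 bp to under 2 kb and 0.66 for those of 10 kb or more.

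**Figure D1:**
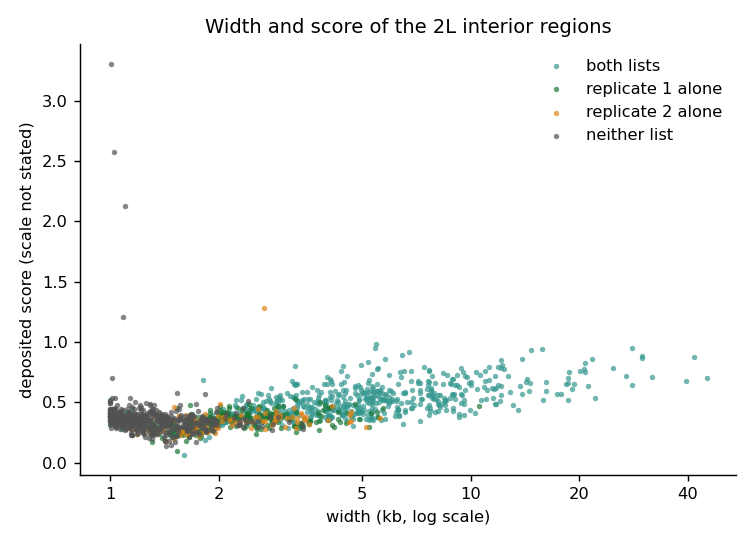
Width (kb, log scale) against the deposited score (scale not stated) of the 1444 members, one point each, coloured by the replicate lists each overlaps. Scores rise with width above 2 kb, while 4 points near 1 kb that overlap neither list reach scores from 1.21 to 3.31.

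Members sat close together within clusters and far apart between them. The median gap between neighbouring members was 2413 bp, with the central 50% between 715.5 and 8512 bp. Of the 1443 gaps, 279 (19.3%) were under 500 bp. At the other end, 114 gaps (7.90%) were 30 kb or longer, and these held 54.5% of all bases between members. Joined across gaps of at most 3 kb, the members formed 316 runs of 2 or more, with a median span of 10.99 kb, and 334 members stood alone. The runs held 76.9% of the members, and 16 of them spanned 50 kb or more.

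To follow the arm, the interior was cut into 190 full steps of 100 kb, each member counted in the step of its midpoint. A step held a median of 7 members, with the central 50% of steps between 4 and 11 and a highest count of 19. No member fell in 11 steps, and 9 steps had no covered base in the whole-series list. The covered share of a step had a median of 22.2% and ran from 0% to 89.7%. Across steps the covered share followed the number of members (Spearman 0.83, 190 steps) more closely than their median width (0.51, over the 179 steps with a member). It hardly followed their median score (0.08, 179 steps). Covered share is made up of the number and width of members, so the relations to both are partly built in. Only the first takes in the 11 steps without a member, so the correlations are not like for like.

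**Figure D2:**
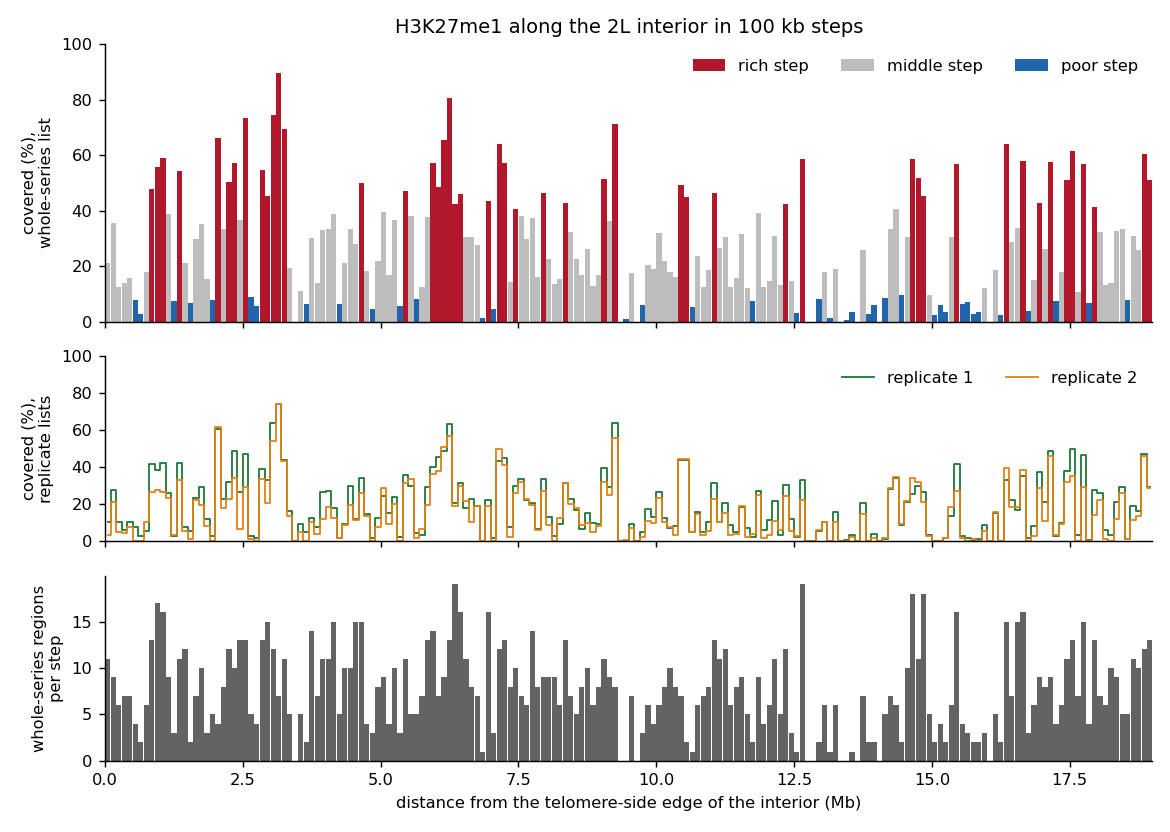
Top, covered share (%) of each 100 kb step in the whole-series list, coloured as rich, middle or poor; middle, the same share in each replicate list; bottom, number of members per step. The horizontal axis is the distance in Mb from the telomere-side edge of the interior. Rich and poor steps are both spread along the arm among middle steps, and the replicate traces largely, though not at every step, rise and fall together.

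Rich steps are defined here as those at or above the upper quartile of covered share in the whole-series list (40.5%), and poor steps as those at or below the lower quartile (9.56%), which gives 48 of each. Since the whole-series list chose the steps, the values that follow describe them. Rich steps held a median of 13 members and poor steps a median of 2. The median width was 2686 bp among the 592 members of rich steps and 1670.5 bp among the 106 of poor steps. Of the 73 members of 10 kb or more, 53 lay in rich steps and 1 in poor steps. A step that wholly holds such a member is above the poor cut, so the definition largely fixes their near absence from poor steps. The 1 in a poor step crosses a step edge. Median scores were alike, 0.39 in rich steps, 0.37 in middle steps and 0.39 in poor steps. Between neighbours inside a step the median gap was 1286 bp in rich steps and 12231 bp in poor steps.

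The replicate lists also covered rich steps more than poor steps. Nearly all replicate bases lay inside the whole-series list (98.6% in replicate 1, 99.1% in replicate 2). Low replicate coverage of the steps that list calls poor was therefore largely fixed in advance. Replicate 1 covered 40.3% of the rich steps and 2.00% of the poor steps, and replicate 2 covered 34.8% and 1.14%. Averaged over steps, rich minus poor was 36.0 percentage points ± 3.3 (SD, n = 2 replicates). When the quartiles were taken in one replicate and the difference was measured in the other, the mean of both directions was 36.5 points. Of the 48 richest steps of each replicate list, 43 were common to both, and of the 48 poorest, 41 were. None of the 48 richest steps of replicate 1 was among the 48 poorest of replicate 2.

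Step by step, the covered shares of the replicates followed each other closely (Spearman 0.96, Pearson 0.96, described over 190 neighbouring steps that share 1 genome). Replicate 1 was the more covered in 134 steps, replicate 2 in 41, and 15 had no covered base in either. The median difference, replicate 1 minus replicate 2, was 2.32 percentage points. In blocks of 1 Mb, replicate 1 was the higher in 18 of 19. The exception was 16 to 17 Mb, with 17.9% in replicate 1 and 18.7% in replicate 2. The steps with the largest excess of each replicate were picked out after their values were seen. From 4400001 to 4500000, replicate 1 covered 26.6% and replicate 2 covered 6.42%. The largest excess of replicate 2 was smaller: from 16600001 to 16700000, replicate 1 covered 25.5% and replicate 2 covered 34.2%.

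**Figure D3:**
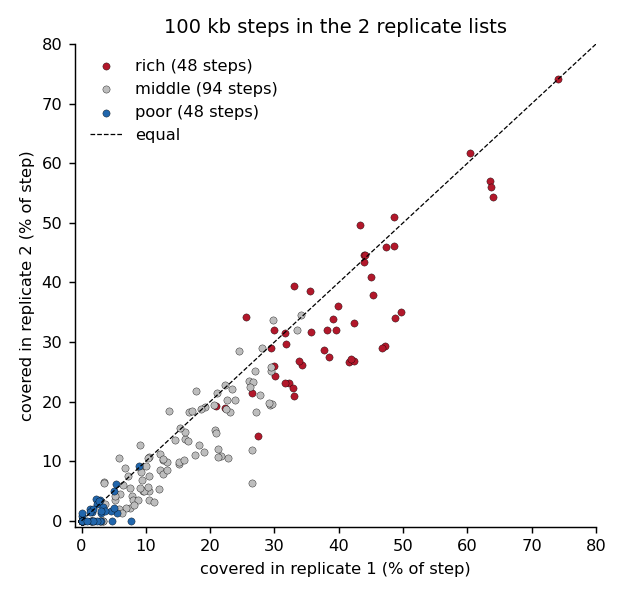
Covered share (%) of each of the 190 steps of 100 kb in replicate 1 (horizontal) and replicate 2 (vertical), coloured by rich, middle and poor steps, with the line of equal shares. Most points lie below the line, since 134 steps were more covered in replicate 1 and 41 in replicate 2.

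The most covered step ran from 5100001 to 5200000. Its 7 members covered 89.7% of it, and the replicates covered 74.04% and 74.1%. The step before it, from 5000001, was covered at 74.4% in the whole-series list, 64.05% in replicate 1 and 54.4% in replicate 2. The other 3 of the 5 most covered steps began at 8200001, 4500001 and 11200001. They had 80.6%, 73.2% and 71.3% covered in the whole-series list. Replicate 1 gave 63.5%, 47.1% and 63.7% in the same order, and replicate 2 gave 57.05%, 29.3% and 55.9%. The step from 4500001 thus had the widest gap between replicates of the 5.

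At the empty end, 9 steps had no covered base in any of the 3 lists. The first 5 in order of position began at 5400001, 11300001, 11600001, 14700001 and 14800001. Of the 9, 5 lay between 14.7 and 17.9 Mb.

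Stretches of at least 3 rich or 3 poor steps in a row were rare, since most runs were a single step. The 48 rich steps fell into 30 runs, of which 21 were 1 step long and 4 were stretches. The 48 poor steps fell into 31 runs, of which 22 were 1 step long and 5 were stretches. The longest rich stretch spanned 600 kb, from 7900001 to 8500000. Its 78 members covered 56.7% of it, with 41.6% covered in replicate 1 and 38.5% in replicate 2. The rich stretch from 4800001 to 5300000 was the most covered, at 66.6%, with 50.8% in replicate 1 and 45.3% in replicate 2, and held 8 members of 10 kb or more. The other 2 each spanned 300 kb. The one from 2800001 to 3100000 had 40.8% covered in replicate 1 and 27.01% in replicate 2. The one from 16600001 to 16900000 had 27.3% and 29.2%.

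All 5 poor stretches lay on the centromere side of the arm, between 14700001 and 17900000. From 15300001 to 15700000 a single member, of 3997 bp with a score of 0.45, was found in 400 kb, and both replicates had a region there. From 14700001 to 15000000 there were 2 members, both also present in both replicates. From 15800001 to 16200000 there were 9 members, 1 of them in both replicates and 5 in neither. From 17000001 to 17300000, 1 of 8 members was in both replicates and 7 were in neither. From 17500001 to 17900000, none of 11 members was in both and 5 were in neither. The replicates covered between 0.57% and 2.09% of each of these 5 stretches. Over all members of the interior, 40.9% were in both replicates and 32.4% in neither, against 35.1% and 37.8% over the whole series. Members were narrow in the stretches from 15800001, 17000001 and 17500001, with median widths of 1735, 1253 and 1713 bp. Narrow members were seldom in both replicates anywhere in the interior, as given below.

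The 3.20 Mb span that holds the 5 poor stretches was mixed. Of its 32 steps, 20 were poor and 4 were rich, and 5 had no covered base. It held 4.69 members per 100 kb, against 8.18 in the rest of the full steps. Replicate coverage was 9.14% ± 0.44 in the span and 18.4% ± 2.7 outside it (SD, n = 2 replicates). Members inside the span were similar in width and score to the rest, with medians of 2008.5 bp and 0.39 against 2149.5 bp and 0.38. The span was drawn around stretches that were themselves chosen as poor, so its low coverage is not a separate result.

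Coverage could change sharply from one step to the next. The median change in covered share between neighbouring steps was 16.7 percentage points. In 18 of 189 neighbouring pairs a rich step touched a poor one, a count that was not compared with a random order of steps. The steepest change was at 11300001, with 0% in the step that begins there and 71.3% in the step before it. Replicate 1 had 0% and 63.7% and replicate 2 had 0% and 55.9% for the same 2 steps. In bins of 10 kb the correlation of neighbouring bins was 0.60 in the whole-series list, 0.56 in replicate 1 and 0.59 in replicate 2. It had dropped to 0.17, 0.13 and 0.16 for bins 50 kb apart, and to 0.05, 0.02 and 0.01 for bins 100 kb apart. For bins 190 kb apart it was slightly higher again, at 0.09, 0.08 and 0.07. Neighbouring steps of 100 kb had correlations of 0.26, 0.23 and 0.25. There was little trend along the arm (Spearman -0.15 between position and covered share, 190 steps).

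The 5 longest stretches between neighbouring members were 213 to 283 kb long. The longest, 283 kb, ran from 14690928 to 14974156. Replicate 1 had no region in it, and replicate 2 reached 194 bp into it. The other 4 ran from 15275028 to 15499521 (224 kb), 11547366 to 11766355 (219 kb), 15503519 to 15716869 (213 kb) and 11285914 to 11499169 (213 kb). None of the 4 had a covered base in either replicate list. The second and the fourth were neighbours, parted by the member of 3997 bp named above.

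Some of these empty stretches began at the edge of dense marking. The 50 kb just before the gap at 11285914 were covered at 84.3% in the whole-series list, 79.3% in replicate 1 and 61.7% in replicate 2. The 50 kb just before the gap at 14690928 had 66.5%, 38.2% and 30.9%. Other edges were sparse: the 50 kb after the gap that ends at 15499521 had 7.99%, 7.64% and 4.59%.

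The long blocks were covered in both replicates, and several stood side by side. The longest member, 45.04 kb from 4069808 to 4114847, had a score of 0.70 and was covered at 86.8% in replicate 1 and 88.5% in replicate 2. A block of 29.9 kb, from 4037055 to 4066927, lay 2880 bp before it and was covered at 98.7% and 98.4%. With 3 shorter members the pair formed a run of 88.2 kb, 95.7% of it inside members.

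A run of 107 kb, from 5106805 to 5214188, held 3 of the 10 longest members, of 28.04, 27.97 and 26.9 kb. It was covered at 93.7% in the whole-series list, 74.7% in replicate 1 and 75.7% in replicate 2. The block from 5146314 to 5174283 had the highest score of the 10 longest, 0.95, with its highest replicate scores at 1.13 and 0.96. The block from 5117342 to 5145377 was the least covered of the 10, at 80.1% in replicate 1 and 67.8% in replicate 2.

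A run of 89.8 kb, from 12455951 to 12545787, held the blocks of 29.8 kb from 12483969 to 12513807 and of 24.8 kb from 12520953 to 12545787. Replicate 1 covered 93.1% of the run and replicate 2 covered 94.5%. At its last base the marking stopped, and no member followed for 149 kb. The next member, 6.51 kb from 12694896 to 12701404, was the only one of its step and was covered at 99.1% and 95.9%. It is 1 of only 2 members of poor steps at least 90% covered in both replicates. The other, 13.9 kb from 16492669 to 16506558, was covered at 97.3% and 93.7%. These 2 were singled out after their values were seen.

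The remaining 3 of the 10 longest members stood apart from one another. They measured 41.6 kb from 9177144 to 9218733, 39.5 kb from 11218035 to 11257550 and 31.7 kb from 7498483 to 7530223. The first was covered at 92.4% in replicate 1 and 99.7% in replicate 2. The second was covered at 93.1% and 84.7%, and lay in 6 separate regions in each replicate. The block at 11218035 reaches into the densely marked flank of the gap at 11285914 described above.

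Blocks that the whole-series list gives as 1 region were often several in the replicates. Of the 73 members of 10 kb or more, 47 held 2 or more regions of replicate 1 and 54 held 2 or more of replicate 2, with at most 6 in either. Of the 202 members of 5 to 10 kb, 49 and 62 did. Of the 497 members of 2 to 5 kb, 20 and 14 did, and none under 2 kb.

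Of the 1444 members, 591 overlapped a region of both replicates by at least 1 bp, or 40.9% (95% Wilson interval 38.4 to 43.5). Over the whole series the share was 35.1%. Replicate 1 alone was overlapped by 272 members, or 18.8%, against 18.7% over the whole series. Replicate 2 alone was overlapped by 113, or 7.83%, against 8.37% over the whole series. Neither was overlapped by 468, or 32.4% (30.05 to 34.9), against 37.8% over the whole series. At least 90% covered in both were 80 members, or 5.54% (4.47 to 6.84), against 4.07% over the whole series. The 3R interior came close to 2L in all 3 shares, with 40.7% in both, 32.5% in neither and 5.04% at least 90% covered in both. On X and 3L the shares in both were 36.6% and 37.8%, those in neither 35.2% and 37.1%, and those at least 90% covered in both 3.63% and 4.45%. Intervals cover counting error only and treat regions as independent, and the whole series includes the members. The replicate lists are not independent of the whole-series list, so no test was made of these shares.

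Presence in the replicates, counted as an overlap of at least 1 bp, went with width. A wider member reaches such an overlap more easily, so part of the relation is built into the measure. No member under 1301 bp overlapped both lists, of 279, a class narrower than any region of the replicate lists in the 2L interior. The share in both was 5.34% of the 393 members of 1301 bp to under 2 kb and 61.0% of the 497 members of 2 to 5 kb. It was 96.5% of the 202 members of 5 to 10 kb and 98.6% of the 73 members of 10 kb or more. The 1 exception of 10 kb or more, 10.5 kb from 4493708 to 4504218, held 3 regions of replicate 1, which covered 81.7% of it, and none of replicate 2. It crosses the edge between the step from 4400001 and that from 4500001, the steps already described for their gap between replicates. The shares at least 90% covered in both replicates were lower. From the narrowest to the widest class they were 0%, 0.25%, 5.03%, 18.3% and 23.3%.

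**Figure D4:**
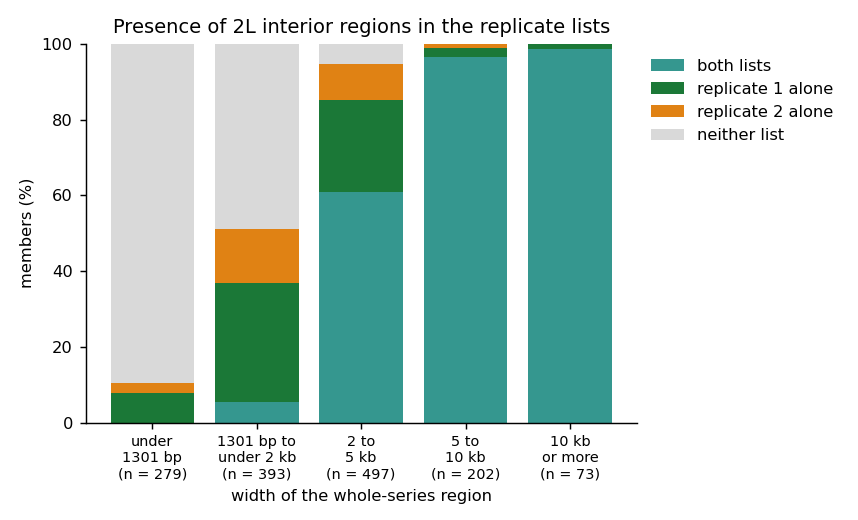
Share (%) of members in 5 width classes that overlap both replicate lists, replicate 1 alone, replicate 2 alone or neither. The share in both grows from 0% under 1301 bp to 98.6% at 10 kb or more.

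Rich steps also held more members found in both replicates. The share in both was 50.8% (46.8 to 54.9) of the 592 members of rich steps, 36.7% of the 744 of middle steps and 15.1% (9.51 to 23.1) of the 106 of poor steps. In bases, 18.3% of the marking in rich steps and 47.3% of that in poor steps was in neither replicate. The replicates' Jaccard index, the bases in both over the bases in either, was 64.8% in rich steps and 32.8% in poor steps. It was 59.1% over the interior. Members of rich steps were also the wider, as given above, and the part of width in these differences was not tested.

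Edges of single regions mostly lay within 1 kb of each other in the replicates. Among the 425 members with exactly 1 region in each replicate, the 2 regions overlapped in 419. Their left edges differed by a median of 306 bp and their right edges by 299 bp. Of the 838 edges, 39.3% lay within 200 bp and 81.9% within 1 kb. The bases shared by the 2 regions were a median of 74.6% of those in either. Replicate 1 gave the wider region in 285 of the 419, with a median of 2930 bp against 2319 bp in replicate 2. Scores of these regions differed by a median of 0.05, replicate 1 minus replicate 2, with an SD of 0.11 across regions. Across the 591 members in both lists, the highest score in replicate 1 and that in replicate 2 correlated at 0.70 (Spearman, a description).

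Members of which each replicate covered at least 90% were ranked by the lower of their replicate scores, and the top 5 included blocks and shorter regions. The first, 20.8 kb from 9496405 to 9517159, had replicate scores of 1.06 and 1.01. The next was the block at 9177144, with 0.98 and 1.00. Its neighbour, 15.8 kb from 9221905 to 9237658, began after a gap of 3171 bp and had 0.96 in each replicate. The last 2 measured 6.74 kb from 18320280 to 18327016 and 6.45 kb from 8031206 to 8037655. Their scores were 0.97 and 0.93 for the first and 0.96 and 0.91 for the second.

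The very highest scores belonged to regions that the replicates did not share. Of the 145 highest-scoring members, 139 overlapped both lists, but of the 5 highest none did. The highest, 3.31, belonged to 1005 bp from 17823686 to 17824690, in a poor step, with 103491 bp without a member before it and 33877 bp after it. It was followed by 2.57 for 1025 bp from 12894489 to 12895513 and 2.12 for 1099 bp from 20162939 to 20164037. The fifth, 1.21, was 1088 bp wide, from 20183685 to 20184772, in the same step as the third. These 4 overlapped neither replicate, as did 250 (89.6%) of the 279 members under 1301 bp, the width class they belong to. The fourth, 1.29, was 2665 bp from 5175996 to 5178660, between blocks of the 107 kb run. Replicate 2 covered 71.3% of it with a score of 1.45, and replicate 1 had no region there.

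The lowest score, 0.06, belonged to a region of 1604 bp from 18605228 to 18606831, singled out after its value was seen. It was covered at 91.5% in replicate 1 and 95.3% in replicate 2, with scores of 0.14 and 0.23. It was the only one of the 672 members under 2 kb that was at least 90% covered in both.

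Members in both replicates had a median width of 4651 bp, and those in neither had one of 1276 bp. Their scores had medians of 0.50 and 0.35 in the same order. The widest member in neither measured 3436 bp from 4812499 to 4815934. The next were 3409 bp from 14651145 to 14654553 and 3133 bp from 16617366 to 16620498. All 3 lay in rich steps.

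The interiors of X, 3L and 3R were cut by the same rule to see where 2L differs, and 2R was not among the interiors compared. The 2L interior was the least covered of the 4 in each replicate. Its 18.5% in replicate 1 stood against 24.5% on X, 21.7% on 3L and 20.1% on 3R. In replicate 2 its 15.3% stood against 19.3%, 17.7% and 16.02%. The difference, 2L minus the other arm, was -5.01 ± 1.33 percentage points for X, -2.80 ± 0.54 for 3L and -1.18 ± 0.60 for 3R (SD, n = 2). With 2 replicates the exact two-sided sign-flip test gives p = 0.5, the smallest it can give, for each of the 3, so none can pass a threshold.

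The lower coverage of 2L came with fewer regions per 100 kb in both replicates, while width showed no shared direction against 3L or 3R. Replicate 1 had 5.40 regions per 100 kb on 2L, against 7.64 on X, 6.69 on 3L and 5.97 on 3R, and replicate 2 had 4.63 against 6.14, 5.35 and 4.99. For median width, 2L exceeded X by 138.5 bp (replicate 1) and 71.0 bp (replicate 2). Set against 3L, the difference came to 124.5 bp and -105.5 bp, so its sign was not shared. Set against 3R it came to 51.5 bp in replicate 1, -44.0 bp in replicate 2 and -78.5 bp in the whole-series list. Steps with under 10% covered made up 41.1% and 46.8% of the 2L steps in the replicates, against 20.7% and 31.0% on X, 31.2% and 39.5% on 3L, and 32.2% and 46.03% on 3R. For 3R the gap in replicate 2 was 0.82 percentage points.

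The median score on 2L was 0.55 in replicate 1 and 0.54 in replicate 2, close to 3L and 3R, from which it differed by at most 0.005 in either list. It was below X by 0.092 in replicate 1 and 0.088 in replicate 2. By each arm's own quartiles, 2L had 4 rich and 5 poor stretches, X had 4 and 6, 3L had 5 and 4, and 3R had 5 and 5.

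**Figure D5:**
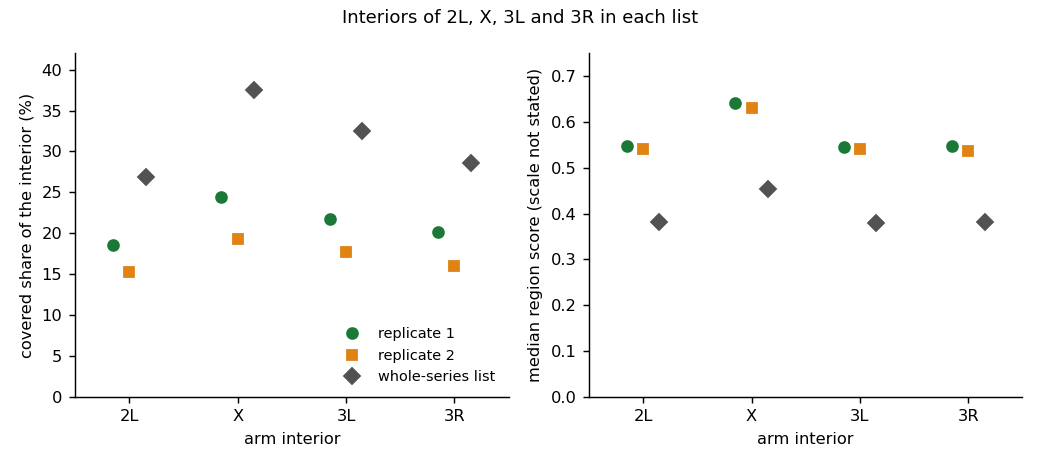
Covered share of the interior (%, left) and median region score (scale not stated, right) of the 2L, X, 3L and 3R interiors, with one symbol for each replicate and for the whole-series list. In every list 2L has the lowest covered share, and its median score lies with 3L and 3R and below X.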

How the data were processed

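Per the file headers, each list gives regions of significant enrichment on FlyBase release 5. Each region carries a score that the authors deposited on an unstated scale. The submitters' processing notes name Bowtie 0.12.7 without its role. Not given in the sources used here were the peak caller and cutoff, whether the input entered, and how the whole-series list arose from the replicates. Read depth is unknown.

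The lists were taken unchanged, but the 3 lines marked as depleted, none of them on 2L, were dropped. Covered share is the bases inside regions over the length. Steps of 100 kb start at the interior's first base, and a remainder of under 1 step at the far end enters no step value. Gap is the number of bases between neighbouring regions. Shares of members carry 95% Wilson intervals. Regions and steps are not replicates, so they were not tested. Differences between arms used the exact sign-flip test over 2 replicates.

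The regions named are the 10 longest, the 5 highest-scoring, the 5 covered at 90% or more in both replicates with the highest lower score, the 5 most and least covered steps, the longest stretches and gaps, and the 3 widest in neither replicate. The members and these rules were chosen with earlier results of these data known. Because the only gene table at hand is on release 6, regions carry no gene names, and no sequence is printed. Step coverage, step counts, gaps and the finding of stretches were checked on a simulated list. The overlap between lists and the differences between arms were not part of that check. The calculations were made in Python 3.11.15 with numpy 2.4.6, pandas 2.3.3 and scipy 1.17.1. Alternatives were other thresholds, widths, joins, overlaps, ends, step sizes and lists.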

Additional observations from a re-analysis of the deposited data

How the results depend on the processing

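Of 56 alternative values for 13 results, none changed sign, and 18 moved beyond the spread, or the range, allowed around the value reported. The 4 differences between arms are not among those 18, since they were compared by direction alone, and several moved by more than their SD. Of the other results, shares, counts, widths, scores and gaps cannot be negative. Picking steps by coverage also largely fixes the sign of rich minus poor. For these results an unchanged sign says little. With the lower-scoring 50% of each list dropped, the replicates covered 10.9% of the 2L interior, members numbered a median of 3 per step, their median width was 4511 bp and the median gap 10012 bp. In that setting 26.8% of members were in neither replicate, rich minus poor was 27.9 points and the replicates correlated across steps at 0.90. The differences of 2L in covered share, whose test cannot pass a threshold under any setting, were then -7.33 points from X, -1.59 from 3L and -0.63 from 3R, and that in median score from X was -0.028. Without whole-series regions narrower than the shortest region of the replicate lists on any arm (1191 bp), the median width was 2544 bp, the median gap 2823 bp, the share in both 47.5% and in neither 23.1%. With regions within 1 kb joined, the median count was 5, the median width 2943 bp and the median gap 5162.5 bp. When 50% of a member had to be covered, 31.9% were in both and 35.5% in neither. Rich minus poor was 43.3 points with 50 kb steps and 29.5 points with 200 kb steps. These settings kept, joined or counted fewer regions, or averaged over shorter or longer steps, and why the values moved was not tested. With each replicate alone, the covered share was 15.3% to 18.5% and rich minus poor 33.7 to 38.3 points. In the whole-series list 2L minus X was -10.6 points, 2L minus 3L -5.55 and 2L minus 3R -1.72. No paired analysis was possible because the input samples, which share replicate numbers with the ChIP samples, have no list here. Read depth, and with it the smallest enrichment that could be seen, is unknown.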

Other observations

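A few regions of the replicate lists in the 2L interior had no counterpart in the whole-series list: 9 of the 1026 of replicate 1 and 7 of the 880 of replicate 2. They were narrow, with median widths of 1425 bp and 1365 bp and a widest of 1549 bp. Their median scores were 0.39 in replicate 1 and 0.50 in replicate 2, against 0.55 and 0.54 over all regions of each list. In bases, 98.6% of the marking of replicate 1 and 99.1% of that of replicate 2 lay inside the whole-series list, and 22.6% of the bases of the whole-series list lay in neither replicate.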
